A study of Mus musculus with 27 samples.

Results

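The genes described here encode the machinery that moves new proteins into the endoplasmic reticulum (ER) and folds them there. A gene was included if its symbol in the deposited table was on a list of 35 translocon, chaperone and folding genes. All 35 were found among the 53379 gene IDs of the table, and all 35 were among the 20611 genes tested. By role they were 6 translocon channel subunits and partners, 4 subunits of the translocon-associated protein (TRAP) complex, 5 signal peptidase subunits, 6 subunits of the oligosaccharyltransferase (OST), 7 members of the luminal Hsp70 and Hsp90 chaperone system, 2 lectin chaperones and 5 disulfide isomerases or their oxidase. A secretory or membrane protein carries a hydrophobic stretch that directs its ribosome to the ER membrane, where the Sec61 channel passes the growing chain into the lumen. Signal peptidase then removes the signal, OST adds N-linked glycans, lectin and Hsp70 chaperones hold the chain, and disulfide isomerases pair its cysteines. Most of these proteins are themselves made at the ER, and many of their genes are known targets of the unfolded protein response, the pathway that raises folding capacity when unfolded chains build up.

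The study measured polyadenylated RNA in E14, an embryonic stem cell line of mouse, which was kept undifferentiated on gelatin with LIF. Cells were transfected with siRNA against PTBP1 (siPTBP1), with siRNAs against PTBP1 and PTBP2 (siPTBP1+siPTBP2, the double knockdown), or with siRNA against GFP (siGFP) as the negative control, and all were harvested at 48 h, after a second transfection at 24 h. PTBP1 is a polypyrimidine tract binding protein that regulates splicing, and PTBP2 is its paralog. Each treatment was separated into chromatin (CH), nucleoplasm (NP) and cytoplasm (CY), with 3 replicates of each of the 9 groups, 27 libraries in all. No genotype differed between groups, and all cells came from 1 line.

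Values are TPM, the share of transcripts that a gene takes after correction for its length, which set every library to the same total. A higher TPM in NP than in CY therefore means a larger share of that fraction's RNA, not more molecules per cell, and in these bulk samples fewer cells with an RNA and less of it per cell cannot be told apart. TPM keeps no read depth, so the number of reads behind a value is unknown; between 11837 and 19509 genes reached 1 TPM in a library. Ptbp1 had 136, 88.6 and 89.2 TPM in NP of siPTBP1 cells and 153, 79.4 and 87.1 TPM in NP of the double knockdown, against 484, 287 and 401 TPM in NP of siGFP cells, so it was lower in every knockdown library of that fraction. Ptbp2 had 3.56, 12.5 and 11.3 TPM in NP of the double knockdown, against 7.81, 19.4 and 20.3 TPM in NP of siGFP cells. The 2 groups overlapped, but each library of the double knockdown was below the siGFP library of its number, in NP and also in CY. In CH Ptbp2 had 23.6, 73.8 and 67.3 TPM in the double knockdown, against 22.8, 91.7 and 87.8 TPM in siGFP cells. Library 1 was thus not lower there, and the CH mean of 54.9 TPM was near the 57.5 TPM of siPTBP1 cells. The summed level of 11 pluripotency markers lay between 1700 and 5020 TPM across all libraries, whereas 9 fibroblast markers summed to 7.21 to 160 TPM. All mitochondrially encoded genes together made up 9.31 to 22.5% of TPM in NP libraries, against 0.0416 to 0.111% in CY libraries. The sum counts mRNAs and other RNAs alike. The NP fraction thus also carried RNA from an organelle outside the nucleus. Libraries numbered 1 stood apart from those numbered 2 and 3 in every group, and replicate number paired the samples. Results are therefore given, where it changes a call, with replicate number as a block and without libraries 1.

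In siGFP cells the ER genes were far more abundant, as a share of RNA, in NP than in CY. By limma on log2(TPM + 1), 26 of the 35 were higher in NP at a Benjamini-Hochberg adjusted p under 0.05 and 0 were lower, against 12.3% of all genes tested that were called higher. The median NP minus CY difference was 2.17 on the log2 scale for the 35 genes and 0.15 for all genes tested. With replicate number as a block, 31 of the 35 were called higher, against 23.5% of all genes. Every NP library was above every CY library for 32 of the 35 genes, a pattern seen for 26.7% of all genes. Without the libraries numbered 1, 30 were called, all higher in NP, against 16.1% of all genes called higher. Together they took 0.839, 0.942 and 0.890% of TPM in NP libraries of siGFP cells, against 0.174, 0.229 and 0.217% in CY libraries. Setting the mitochondrially encoded genes aside and rescaling gave 28 calls, all higher in NP, against 15.1% of the remaining genes. Across all genes the split of calls moved with scaling: 2543 higher and 95 lower as deposited, 2157 and 783 with median-ratio scaling, and 1437 and 802 with quantile normalization. The ER genes had 24 and 25 calls under these scalings, all higher in NP.

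**Figure D1:**
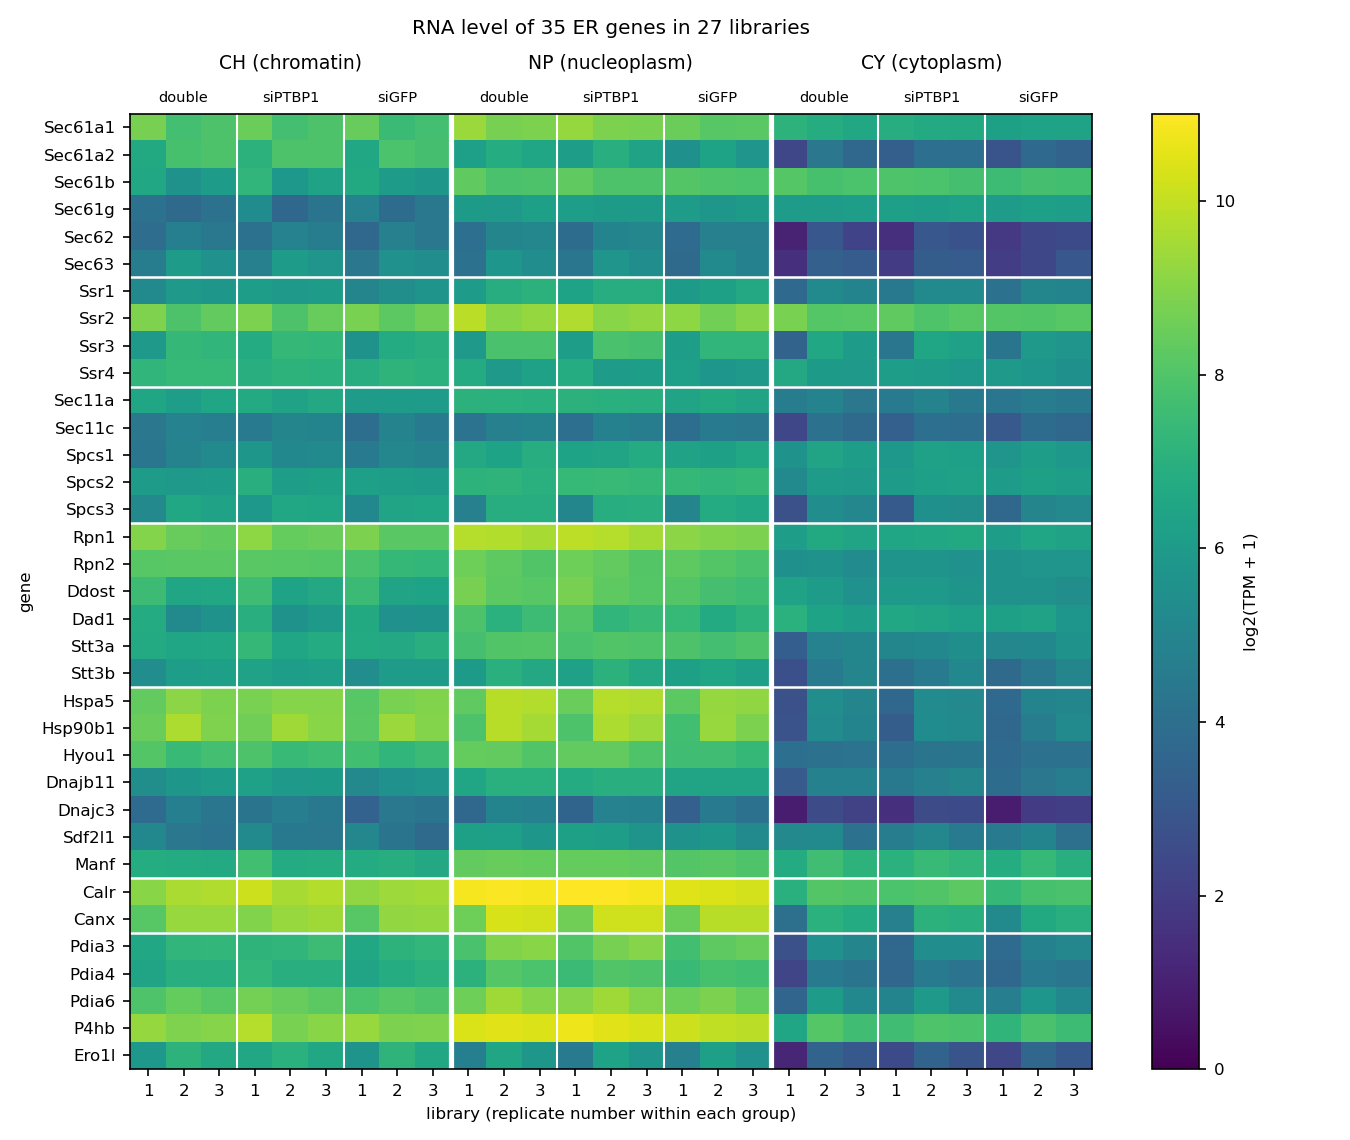
Heat map of log2(TPM + 1) for the 35 ER genes (rows, grouped by role between white lines) in 27 libraries (columns, by fraction, treatment and replicate number). The NP columns are brighter than the CY columns for most genes, and Calr and P4hb are the most abundant, with means over all libraries of 909 and 684 TPM.

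**Figure D2:**
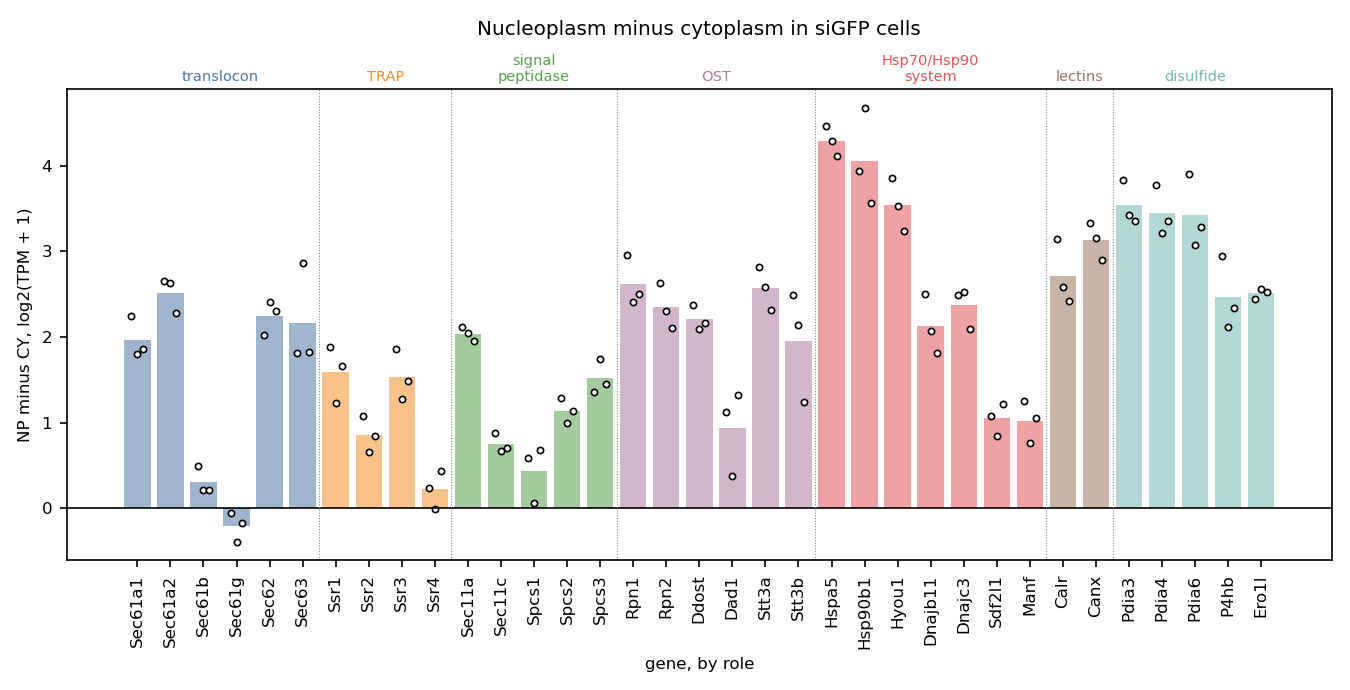
NP minus CY difference in siGFP cells on the log2(TPM + 1) scale for each ER gene, by role. Bars are means over 3 pairs of libraries with the same replicate number and points are the pairs; the values run from -0.20 for Sec61g to 4.29 for Hspa5.

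Among the translocon genes, 4 of 6 were called higher in NP, with a median difference of 2.07. Sec61a1 encodes the pore-forming alpha subunit of the channel (chromosome 6, 88503579 to 88518905, minus strand, GRCm38). It had 366, 287 and 294 TPM in NP, against 76.1, 81.7 and 80.5 TPM in CY, a difference of 1.97 ± 0.27 (SE; limma adjusted p = 1.77e-05). Its paralog Sec61a2, with which its transcript shares no 31-base word, had 44.4, 83.3 and 53.0 TPM in NP, against 6.22, 12.6 and 10.2 TPM in CY. For both alpha subunits the NP and CY libraries did not overlap. Sec62 and Sec63, membrane partners of the channel that serve post-translational import and BiP recruitment, differed by 2.25 and 2.17. The small subunits of the same channel were not called. Sec61b, the beta subunit, had 264, 253 and 236 TPM in NP, against 188, 218 and 203 TPM in CY (0.31 ± 0.28; adjusted p = 0.611). Sec61g, the gamma subunit, had 65.3, 55.2 and 62.1 TPM in NP, against 67.8, 72.8 and 69.8 TPM in CY (-0.20 ± 0.28; adjusted p = 0.783), the smallest difference of the 35. Every NP library of Sec61g lay below every CY library. Both small subunits are tail-anchored: only 14 residues of Sec61b and 15 of Sec61g follow the hydrophobic stretch found in their coding sequence. Their values are uncertain, since 54.5% of the 31-base words of the Sec61b transcript and 21.3% of those of Sec61g also occurred in transcripts of other genes, against under 10% for each of the other 33.

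The TRAP complex sits beside the channel and helps some signal sequences enter it. Ssr1 (1.59) and Ssr2 (0.86), its alpha and beta subunits, were called higher in NP. Ssr3, the gamma subunit, had a difference of 1.54 that passed with the replicate block (adjusted p = 0.000367) but not without it (adjusted p = 0.232). Its level was 69.8, 152 and 149 TPM in NP, against 18.4, 61.8 and 52.5 TPM in CY, with library 1 lowest in both fractions. Ssr4, the delta subunit (chromosome X, 73787028 to 73790830, plus strand), had 73.2, 54.8 and 60.8 TPM in NP, against 62.0, 54.9 and 44.6 TPM in CY. These overlapped (0.23 ± 0.23; adjusted p = 0.663), and the sign turned with median-ratio scaling (-0.18). In signal peptidase, 2 of 5 were called: the catalytic subunit Sec11a (2.04) and the accessory subunit Spcs2 (1.14). The other catalytic subunit, Sec11c (0.75), and the accessory subunit Spcs3 (1.52) passed under the block alone (adjusted p = 0.00330 and 0.000147). Spcs1, another small accessory subunit, was not called in either fit (0.44; adjusted p = 0.341, and 0.161 with the block).

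In OST, which transfers a preassembled glycan to asparagine, 5 of 6 subunits were called higher in NP and the median difference was 2.28. Rpn1 (ribophorin I; 2.62), Rpn2 (ribophorin II; 2.35), Ddost (2.21) and the 2 alternative catalytic subunits Stt3a (2.57) and Stt3b (1.96) were the 5. Rpn1 (chromosome 6, 88084482 to 88105304, plus strand) had 545, 478 and 462 TPM in NP, against 69.2, 89.2 and 80.9 TPM in CY, with no overlap. Dad1, the smallest of the 6 proteins, differed by 0.94, which passed under the block (adjusted p = 0.00310) and not without it (adjusted p = 0.144).

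The luminal chaperones held the largest differences of all 35. Hspa5 encodes BiP, the ER Hsp70 that binds unfolded chains and restrains the stress sensors (chromosome 2, 34771970 to 34777547, plus strand). It had 304, 607 and 577 TPM in NP, against 12.7, 30.1 and 32.6 TPM in CY, which is 19.6-fold (4.29 ± 0.59; adjusted p = 1.55e-05). Hsp90b1 encodes GRP94, the ER Hsp90 (chromosome 10, 86690209 to 86705509, minus strand). It had 201, 633 and 460 TPM in NP, against 12.1, 24.0 and 37.7 TPM in CY (4.06 ± 0.69; adjusted p = 0.000225). In both genes the lowest NP library, library 1, was still above every CY library. Hyou1, a large Hsp70 relative that acts as a nucleotide exchange factor for BiP, had 196, 198 and 162 TPM in NP, against 12.6, 16.3 and 16.3 TPM in CY (3.54 ± 0.19; adjusted p = 1.05e-10). The J-domain cochaperones Dnajb11 and Dnajc3 differed by 2.13 and 2.37, and Manf, a small secreted stress factor, by 1.02. Sdf2l1, which works with Dnajb11, had 47.9, 55.2 and 37.3 TPM in NP, against 22.1, 30.2 and 15.5 TPM in CY. Its difference of 1.05 was called with the block (adjusted p = 0.00131) and not without it (adjusted p = 0.0597).

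The lectin chaperones bind chains that carry a trimmed glycan. Calr (calreticulin; chromosome 8, 84841850 to 84846934, minus strand) was the most abundant of the 35, with 1440, 1320 and 1230 TPM in NP, against 162, 220 and 229 TPM in CY (2.71 ± 0.24; adjusted p = 4.99e-08). Canx (calnexin), its membrane-bound relative, had 375, 912 and 894 TPM in NP, against 36.5, 101 and 119 TPM in CY (3.13). All 5 disulfide genes were called, with a median of 3.42: the isomerases Pdia3 (3.54), Pdia4 (3.45), Pdia6 (3.42) and P4hb (2.47) and the oxidase Ero1l (2.51), which reoxidizes them. P4hb (chromosome 11, 120560298 to 120573253, minus strand) had 1150, 986 and 938 TPM in NP, against 148, 227 and 184 TPM in CY, again with no overlap.

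Several of these chaperone genes carry the ER stress element, the promoter sequence through which the unfolded protein response is known to act, and it is shown here because it marks a subset of the genes by a property that no TPM value entered. It was searched as CCAAT and CCACG separated by 9 bases, on both strands, in RefSeq promoters (GRCm38.p6, 250 bases before to 50 after each start). Of the 29 ER genes with a promoter entry, 6 held it (20.69%), against 37 of 27025 genes in the promoter table (0.137%). Many genes of the list are known targets of the unfolded protein response, so the higher share is not an independent result. The element is in capitals in the 250 bases before the start of Hspa5 (chr2:34771840-34772089, plus strand) and of Hsp90b1 (chr10:86705445-86705694, minus strand), written 5′ to 3′ in the direction of the gene. These windows stand before the RefSeq starts, which lie inside the GENCODE gene spans given above, so part of each window falls within the gene as GENCODE annotates it.
Hspa5: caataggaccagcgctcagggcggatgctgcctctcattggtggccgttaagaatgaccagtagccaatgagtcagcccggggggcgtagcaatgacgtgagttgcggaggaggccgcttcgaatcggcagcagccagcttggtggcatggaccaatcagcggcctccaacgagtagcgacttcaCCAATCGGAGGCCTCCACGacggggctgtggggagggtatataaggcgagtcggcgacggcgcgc
Hsp90b1: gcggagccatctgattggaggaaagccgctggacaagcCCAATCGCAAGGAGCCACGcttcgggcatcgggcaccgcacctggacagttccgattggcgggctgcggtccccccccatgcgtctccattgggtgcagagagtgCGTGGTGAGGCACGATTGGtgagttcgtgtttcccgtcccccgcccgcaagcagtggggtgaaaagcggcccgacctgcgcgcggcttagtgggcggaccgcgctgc
The first base of the element lay at position -65 in Hspa5 and at -212 and, on the opposite strand, -107 in Hsp90b1. In the other 4 genes the element, spacer included, read as follows, with its first position in brackets; that of Calr is on the opposite strand.
Dnajc3 (-105): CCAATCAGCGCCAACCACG
Calr (-162): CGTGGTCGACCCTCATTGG
Canx (-145): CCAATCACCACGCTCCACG
Pdia6 (-98): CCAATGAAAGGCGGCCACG
All 6 genes were among the 26 of 35 called higher in NP in siGFP cells, but most of the other members were called too. A match is only a description of these letters, and binding was not measured.

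The same fraction pattern held in the knockdown cells. In siPTBP1 cells 28 of the 35 were called higher in NP than in CY and 0 lower, against 13.6% of all genes called higher (31 with the block, against 22.2%). In the double knockdown 28 were called higher and 0 lower, against 15.4% (31 with the block, against 25.7%). The median NP minus CY difference of the 35 genes was 2.24 in siPTBP1 cells, 2.48 in the double knockdown and 2.17 in siGFP cells. Hspa5 led in each treatment, with 4.62 in siPTBP1 cells, 4.91 in the double knockdown and 4.29 in siGFP cells, and Sec61g was lowest, at -0.15, -0.03 and -0.20 in the same order of treatments.

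What the encoded proteins share was read from GENCODE M21 coding sequences. A protein was called signal-like if a hydrophobic window of 10 residues started within its first 30, and otherwise membrane-like if a hydrophobic window of 19 residues occurred anywhere; 26 of the 35 were signal-like, 9 membrane-like and 0 had neither. Among genes other than these 35, the NP minus CY median in siGFP cells was 0.69 for 2866 signal-like genes, 0.32 for 2495 membrane-like genes and 0.03 for 8684 with neither feature. Of the other signal-like genes, 1174 were called higher in NP. The median of the 35 genes lay above the middle of a class that as a whole was higher in NP: the 75th percentile of the other signal-like genes was 1.42.

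The differences also ranked with protein length, a relation looked at after the values were seen. Across the 35 genes Pearson's r between NP minus CY and log2 protein length was 0.86 and Spearman's rho 0.82, against 0.30 and 0.29 across the 2866 other signal-like genes. Across the 8684 other genes with neither feature they were 0.29 and 0.33, so the weaker relation was not particular to signal-like genes. These are correlations across genes that share the same libraries, and genes are not independent replicates. The 11 ER genes that encode fewer than 200 residues had a median difference of 0.86, and the 24 longer ones 2.49. For the other signal-like genes the medians were 0.34 (397 genes) and 0.76 (2469 genes). The 4 shortest proteins were Sec61g (68 residues), Sec61b (96), Spcs1 (102) and Dad1 (113), with differences of -0.20, 0.31, 0.44 and 0.94. Ssr4 (172 residues) lay between the first 2 of them, at 0.23. The values of Sec61g and Sec61b are uncertain because of shared words, as given above, and no correlation was computed without them. The 3 longest were Hyou1 (999 residues), Stt3b (823) and Hsp90b1 (802), with differences of 3.54, 1.96 and 4.06, so Stt3b lay well below the other two. Among the short ones Sec11a stood highest, at 2.04 with 179 residues.

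**Figure D3:**
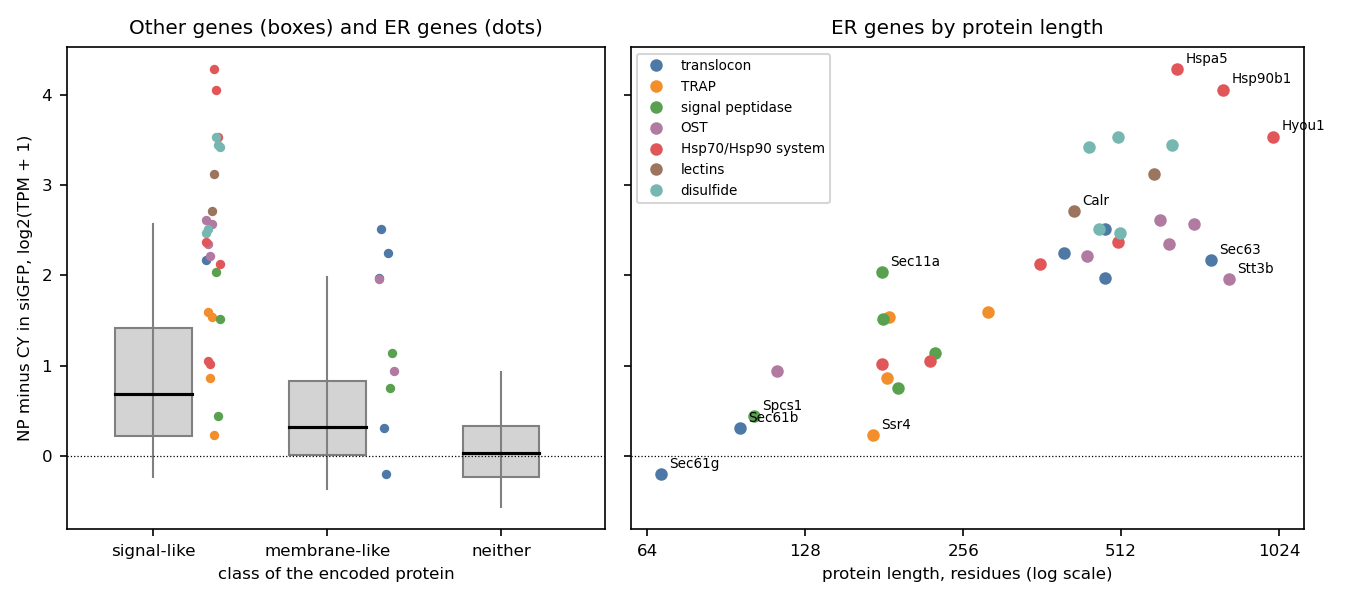
NP minus CY difference in siGFP cells on the log2(TPM + 1) scale. Left, boxes give the median, quartiles and 5th to 95th percentiles of other genes by protein class, and dots are the ER genes. Right, the ER genes against protein length in residues on a log axis, where Sec61g (68 residues, -0.20) is lowest and Hspa5 (655 residues, 4.29) is highest.

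Other genes of the same pathway, from 7 lists that hold none of the 35, were also counted: 68 of 119 were called higher in NP in siGFP cells and 0 lower, with a median of 1.21. N-glycan enzymes (17 of 21 called, median 1.46) and other folding and cargo factors (23 of 28, median 1.59) had the largest shares called. The glucosidase II subunits Ganab and Prkcsh and the folding sensor Uggt1 differed by 3.62, 2.90 and 3.79. In ER-associated degradation, which sends misfolded proteins to the proteasome, 11 of 22 were called (median 1.19), with Os9, Syvn1 and Sel1l at 2.90, 2.51 and 2.84. In the unfolded protein response list 6 of 14 were called (median 0.80). These included the transmembrane sensors Eif2ak3 (2.20) and Atf6 (1.83) and the protease Mbtps1, which cleaves ATF6. Without the block no subunit of the cytosolic signal recognition particle was called: the receptor subunits Srpr (1.97) and Srprb (1.49) were the 2 called of that list's 9, and Srp9 had a difference of -0.60 (adjusted p = 0.344, and 0.00606 with the block). Of 29 cytosolic chaperones, which fold proteins that never enter the ER, 0 were called higher and 2 lower, the prefoldin subunits Pfdn2 (-0.60) and Pfdn5 (-0.83), with a median of -0.35. The mitochondrially encoded mRNAs were all called higher in NP (13 of 13, median 7.70), the direction of the ER genes; with them left out the ER genes had 28 calls, as given above.

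In CH of siGFP cells, 24 of the 35 were called higher in CH than in CY, against 57.9% of all genes, and 3 were called lower, against 8.08%. Those 24 are read against a background in which most genes were called, and the split depended on scaling: with median-ratio scaling 16 were higher and 7 lower, and with quantile normalization 19 and 6. The 3 lower in CH were the short-protein genes Sec61b (-1.49), Sec61g (-1.76) and Spcs1 (-1.08). Sec61g had 28.9, 13.8 and 20.0 TPM in CH, against 67.8, 72.8 and 69.8 TPM in CY, with no overlap. Set against NP, 16 were called lower in CH, against 5.48% of all genes, and 2 were called higher, against 46.0% (4 with the block, against 57.0%). Leaving out siGFP CH library 2 or 3 or NP library 1 gave 10 called lower and 2 higher. The median CH minus NP difference was -0.54 for the 35 genes and 0.68 for all genes. Here too the split moved, to 1 higher and 23 lower with median-ratio scaling and 1 and 19 with quantile normalization. Over all genes the CH minus CY calls were 11942 higher and 1665 lower as deposited, 8020 and 4503 with median-ratio scaling, and 4917 and 6439 with quantile normalization. The CH minus NP calls over all genes were 9479 higher and 1130 lower, 6178 and 2826, and 3954 and 4702 in the same order of scalings. The 2 genes called higher in CH than in NP were Sec61a2 (1.52) and Ssr4 (1.02). Sec61a2 had 95.7, 234 and 213 TPM in CH, against 44.4, 83.3 and 53.0 TPM in NP. Its CH level was thus of the same order as that of Sec61a1 (344, 179 and 211 TPM in CH), whereas in NP Sec61a1 was the higher in every library. Ssr4 had 115, 142 and 129 TPM in CH, against 73.2, 54.8 and 60.8 TPM in NP, again without overlap.

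The knockdowns were then compared with siGFP cells within each fraction, and both share the siGFP libraries. In NP no gene of the 35 was called by limma in siPTBP1 cells, against 0.16% of all genes in either direction, or in the double knockdown, against 0.155%. At an unadjusted p under 0.05 there were 5 in each knockdown: Sec61a1, Sec11a, Rpn1, Hyou1 and Calr. Over all genes that threshold was passed by 4.88% in siPTBP1 cells and 5.24% in the double knockdown. The differences were small and mostly of 1 sign. In siPTBP1 cells 35 of 35 lay above 0 with a median of 0.39, and in the double knockdown 34 of 35 with a median of 0.38, against a median of -0.01 and 44.9 and 44.3% of all genes above 0. Every knockdown NP library was above every siGFP NP library for 11 genes in siPTBP1 cells, against 5.08% of all genes, and for 9 in the double knockdown, against 5.11%. The rise was shared in part by the 2866 other signal-like genes. Of these, 70.0% lay above 0 in siPTBP1 cells and 67.3% in the double knockdown. Every knockdown library was above siGFP for 404 and 339 of them. The 35 genes summed to 1.16, 1.32 and 1.21% of TPM in NP of siPTBP1 cells and 1.07 to 1.33% in NP of the double knockdown, against 0.839, 0.942 and 0.890% in NP of siGFP cells. These sums did not overlap between either knockdown and siGFP.

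**Figure D4:**
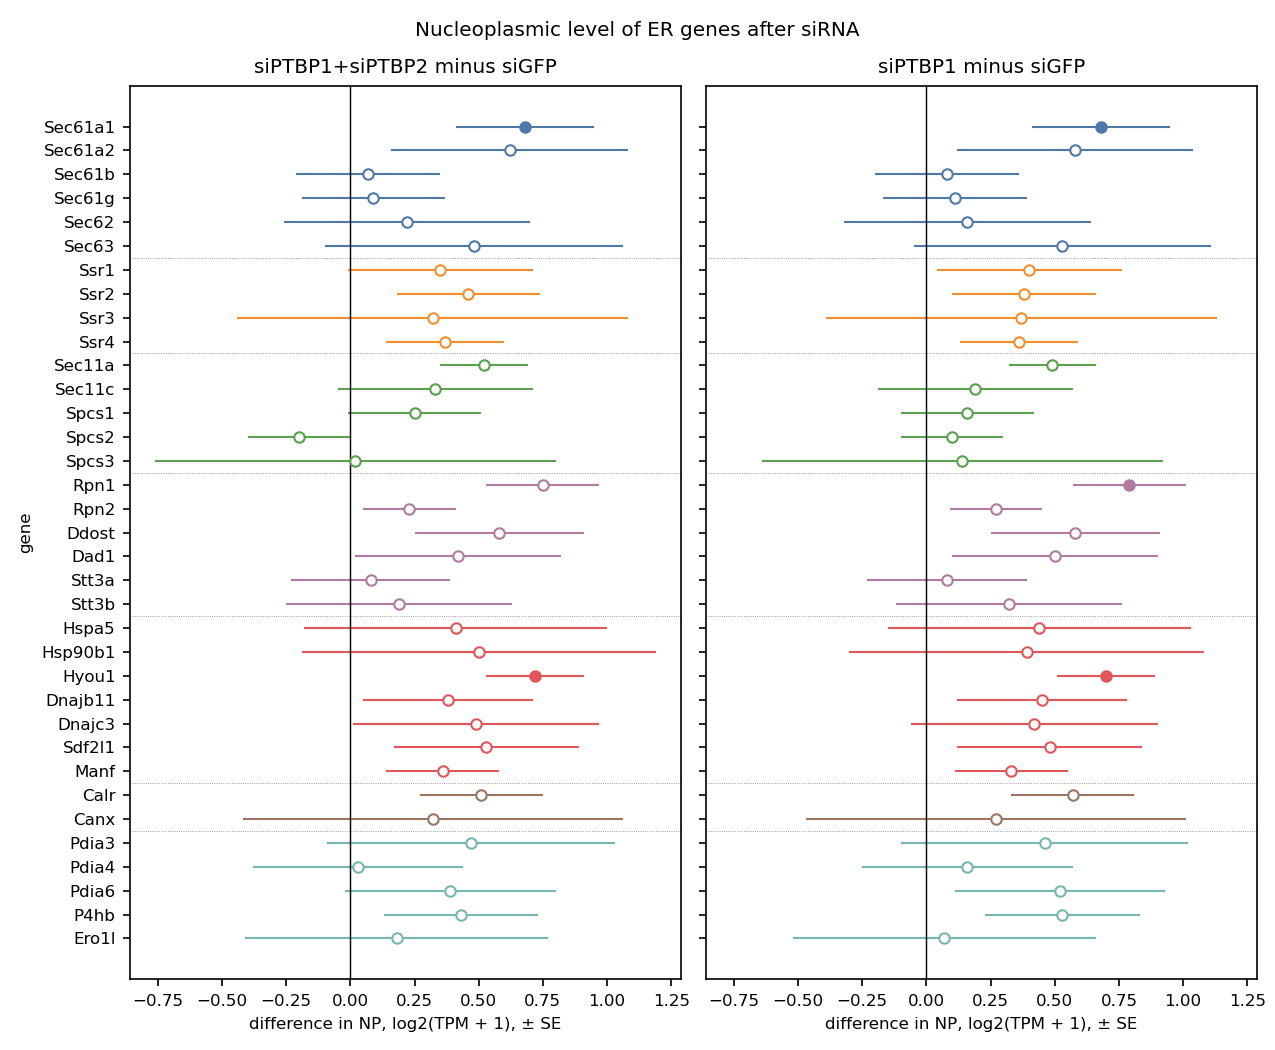
Difference in NP on the log2(TPM + 1) scale for the double knockdown (left) and siPTBP1 (right) minus siGFP, with the standard error from limma. Genes are ordered and coloured by role, and filled points passed with the replicate block: Sec61a1 and Hyou1 in both panels and Rpn1 in siPTBP1. All points lie above 0 except Spcs2 in the double knockdown (-0.20).

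With replicate number as a block, 3 of the 35 were called higher in NP of siPTBP1 cells, against 1.2% of all genes, and 2 in NP of the double knockdown, against 1.14%. Of the 2866 other signal-like genes, 136 and 105 were called higher in the same contrasts. Hyou1 had 327, 328 and 254 TPM in NP of siPTBP1 cells and 337, 326 and 259 TPM in NP of the double knockdown, against 196, 198 and 162 TPM in NP of siGFP cells. It differed by 0.70 ± 0.19 in siPTBP1 cells (adjusted p = 0.0399 with the block, 0.240 without it) and by 0.72 ± 0.19 in the double knockdown (adjusted p = 0.0323 with the block, 0.192 without it). Each knockdown library of Hyou1 was above all siGFP libraries. Sec61a1 had 612, 460 and 448 TPM in NP of siPTBP1 cells and 646, 428 and 463 TPM in NP of the double knockdown, against 366, 287 and 294 TPM in NP of siGFP cells. Its difference was 0.68 ± 0.27 in each knockdown, with adjusted p of 0.0431 in siPTBP1 cells and 0.0410 in the double knockdown with the block (0.756 and 0.740 without it). Library 1 was the highest of each group and the groups did not overlap. Rpn1 had 976, 870 and 728 TPM in NP of siPTBP1 cells and 876, 866 and 759 TPM in NP of the double knockdown, against 545, 478 and 462 TPM in NP of siGFP cells. It differed by 0.79 ± 0.22 in siPTBP1 cells (adjusted p = 0.0463 with the block, 0.308 without it) and by 0.75 ± 0.22 in the double knockdown, where it was not called (adjusted p = 0.0579 with the block, 0.334 without it). Its knockdown and siGFP libraries also did not overlap.

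Sec11a and Calr did not pass in NP in either fit. Sec11a had 134, 126 and 121 TPM in NP of siPTBP1 cells and 132, 131 and 125 TPM in NP of the double knockdown, against 84.9, 101 and 85.0 TPM in NP of siGFP cells (0.49 ± 0.17 and 0.52 ± 0.17). Calr had 2060, 2010 and 1840 TPM in NP of siPTBP1 cells and 1870, 1980 and 1850 TPM in NP of the double knockdown, against 1440, 1320 and 1230 TPM in NP of siGFP cells (0.57 ± 0.24 and 0.51 ± 0.24). Neither gene's knockdown libraries overlapped its siGFP libraries. With all libraries numbered 1 left out, Calr was called in both knockdowns (0.59 and 0.58, limma adjusted p = 0.0395 and 0.0465), as was Rpn1 (0.76 and 0.79). Over all 20611 genes, 57 were then called higher and 54 lower in NP of siPTBP1 cells, and 42 and 51 in the double knockdown. The other genes with no overlap in both knockdowns were Ddost, Dnajb11, Manf and P4hb, and in siPTBP1 cells also Spcs2 and Pdia6. P4hb had 1680, 1470 and 1300 TPM in NP of siPTBP1 cells and 1320, 1450 and 1360 TPM in NP of the double knockdown, against 1150, 986 and 938 TPM in NP of siGFP cells. Hspa5 and Hsp90b1, which had the largest NP minus CY differences, were not among these. Hyou1 and Pdia6, also far higher in NP than in CY, did not overlap in siPTBP1 cells. Hspa5 had 360, 887 and 836 TPM in NP of siPTBP1 cells and 318, 907 and 861 TPM in NP of the double knockdown, against 304, 607 and 577 TPM in NP of siGFP cells. Library 1 of each knockdown lay below libraries 2 and 3 of siGFP. Each same-number pair of Hspa5 was higher in the knockdown, with differences of 0.44 ± 0.59 in siPTBP1 cells and 0.41 ± 0.59 in the double knockdown. All 3 same-number pairs were higher in NP for 31 of the 35 genes in siPTBP1 cells, against 19.6% of all genes, and for 25 in the double knockdown, against 19%.

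By role, the median NP difference from siGFP was lowest for signal peptidase in siPTBP1 cells. In siPTBP1 cells it was 0.35 for the translocon, 0.38 for TRAP, 0.16 for signal peptidase, 0.41 for OST, 0.44 for the Hsp70 and Hsp90 system, 0.42 for the lectins and 0.46 for the disulfide genes. In the double knockdown the medians of the same groups were 0.35, 0.36, 0.25, 0.32, 0.49, 0.42 and 0.39. Spcs2 was the only gene below 0 in NP: 138, 142 and 127 TPM in the double knockdown, against 159, 151 and 158 TPM in siGFP cells (-0.20 ± 0.20; adjusted p = 1.00). All 3 libraries of the double knockdown were below those of siGFP, whereas in NP of siPTBP1 cells Spcs2 had 165, 177 and 159 TPM.

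In CY no gene was called in siPTBP1 cells, against 0.228% of all genes, or in the double knockdown, against 0.243%, and the block added none. At an unadjusted p under 0.05 there were 0 in siPTBP1 cells, against 4.41% of all genes, and 2 in the double knockdown, against 4.96%, a share near that of all genes. The median CY difference was 0.21 in siPTBP1 cells, with 30 of 35 above 0, against 0.06 and 67.4% for all genes. In the double knockdown it was -0.01, with 17 of 35 above 0, against 0.0 and 53.8% for all genes, and without the libraries numbered 1 it was 0.18, with 29 above 0. With median-ratio scaling the siPTBP1 median was 0.02, with 21 above 0. Every library was above siGFP for 4 genes in siPTBP1 cells, against 9.17% of all genes, and for 2 in the double knockdown, against 6.91%. For Stt3a and Rpn2 every CY library of the double knockdown was below siGFP. Rpn2 had 45.2, 49.5 and 38.5 TPM there, against 49.8, 52.4 and 52.4 TPM in CY of siGFP cells. Sec61a1 had 115, 105 and 101 TPM in CY of siPTBP1 cells and 138, 112 and 95.5 TPM in CY of the double knockdown, against 76.1, 81.7 and 80.5 TPM in CY of siGFP cells (0.42 ± 0.27 and 0.52 ± 0.27), without overlap. Calr had 235, 255 and 298 TPM in CY of siPTBP1 cells, against 162, 220 and 229 TPM in CY of siGFP cells (0.37 ± 0.24). Stt3a was the gene with the smallest p in CY of the double knockdown: 8.77, 28.2 and 31.8 TPM, against 33.5, 34.3 and 48.4 TPM in siGFP cells (-0.89 ± 0.31; adjusted p = 0.552, and 0.112 with the block). Its value of 8.77 TPM was that of library 1, the lowest of the 9 CY libraries, and siPTBP1 cells had 32.4, 33.8 and 43.2 TPM. Spcs2 had 36.4, 64.8 and 59.7 TPM in CY of the double knockdown, against 64.2, 75.5 and 70.9 TPM in CY of siGFP cells (-0.42 ± 0.20; adjusted p = 0.978).

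In CH no gene was called without the block in siPTBP1 cells, against 0.398% of all genes, or in the double knockdown, against 0.427%; at an unadjusted p under 0.05 there were 3, against 6.65%, and 1, against 6.94%. The median CH difference was 0.32 in siPTBP1 cells, with 33 of 35 above 0, against 0.09 and 63.5% for all genes, and it was 0.16 without the libraries numbered 1. In the double knockdown it was 0.08, with 28 of 35 above 0, against 0.07 and 61.1% for all genes. With median-ratio scaling the CH medians were 0.20 in siPTBP1 cells and -0.01 in the double knockdown, with 30 and 17 above 0. With the block 1 gene, Rpn2, was called higher in siPTBP1 cells, against 1.82% of all genes, and in the double knockdown, against 1.64%. Rpn2 had 291, 285 and 271 TPM in CH of siPTBP1 cells and 285, 289 and 291 TPM in CH of the double knockdown, against 231, 162 and 154 TPM in CH of siGFP cells, with no overlap. It differed by 0.65 ± 0.18 in siPTBP1 cells (adjusted p = 0.0121 with the block, 0.155 without it) and by 0.68 ± 0.18 in the double knockdown (adjusted p = 0.00901 with the block, 0.127 without it). In NP its values overlapped: 385, 327 and 265 TPM in siPTBP1 cells and 382, 309 and 257 TPM in the double knockdown, against 314, 264 and 229 TPM in siGFP cells. Sec11a had 106, 79.7 and 97.9 TPM in CH of siPTBP1 cells and 89.3, 70.2 and 89.6 TPM in CH of the double knockdown, against 65.8, 64.1 and 66.6 TPM in CH of siGFP cells (0.51 ± 0.17 and 0.33 ± 0.17; adjusted p = 0.325 and 0.805). Every CH library was above siGFP for 8 genes in siPTBP1 cells, against 5.87% of all genes, and for 3 in the double knockdown, against 5.39%.

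Whether the knockdown effect differed between NP and CY was tested as a difference of differences. No gene of the 35 was called for siPTBP1 or for the double knockdown, with or without the block, against 0.00485% of all genes in each; at an unadjusted p under 0.05 there were 0 for siPTBP1, against 1.04% of all genes, and 3 for the double knockdown (Hyou1, Stt3a and Rpn1), against 1.15%. The values ran from -0.13 to 0.53 for siPTBP1, with a median of 0.19 and 28 of 35 above 0, which became 0.42 with median-ratio scaling and 0.35 with quantile normalization, each with 35 of 35 above 0. They ran from -0.19 to 0.98 for the double knockdown, with a median of 0.40 and 33 of 35 above 0. No single gene was thereby shown to respond differently in NP and CY. The double knockdown was also set against siPTBP1. No gene was called in NP (against 0.00485% of all genes), CY (0.0%) or CH (0.107%), and at an unadjusted p under 0.05 there were 0, 2 and 1, against 0.733, 0.713 and 3.21% of all genes. In NP these differences ran from -0.30 to 0.14, with 17 of 35 above 0. In CY their median was -0.30, with 8 above 0, and -0.07 without the libraries numbered 1. In CH the median was -0.18, with 4 above 0, and -0.05 without the libraries numbered 1. Spcs2 (-0.46 ± 0.20) and Stt3a (-0.82 ± 0.31) were the 2 in CY, and in both the 3 libraries of the double knockdown were below those of siPTBP1.

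Other lists were set beside the 35 genes in NP after knockdown. The 119 genes of the other ER lists had medians of 0.22 in siPTBP1 cells and 0.19 in the double knockdown, and 1 of them, Emc1, was called in both. Emc1, a subunit of the ER membrane protein complex that inserts membrane proteins, averaged 77.6 ± 13.1 TPM in siPTBP1 cells and 71.5 ± 9.91 TPM in the double knockdown, against 32.6 ± 2.94 TPM in siGFP cells (SD, n = 3 each). Its differences of 1.21 and 1.10 passed without the block (limma adjusted p = 0.00249 and 0.00756). With the block, Txndc5, a disulfide isomerase relative (1.07 and 1.04), and Fkbp10, a prolyl isomerase of collagen folding (0.99 and 0.97), were also called in both knockdowns. The 14 genes of the unfolded protein response list had medians of 0.06 and 0.03, and 0 were called. All 29 cytosolic chaperones were below 0 in both knockdowns, with medians of -0.33 and -0.39, and 0 were called. In the classes of other genes by protein, the NP medians were 0.15, 0.02 and -0.11 for signal-like, membrane-like and neither in siPTBP1 cells and 0.12, 0.01 and -0.13 in the double knockdown.

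**Figure D5:**
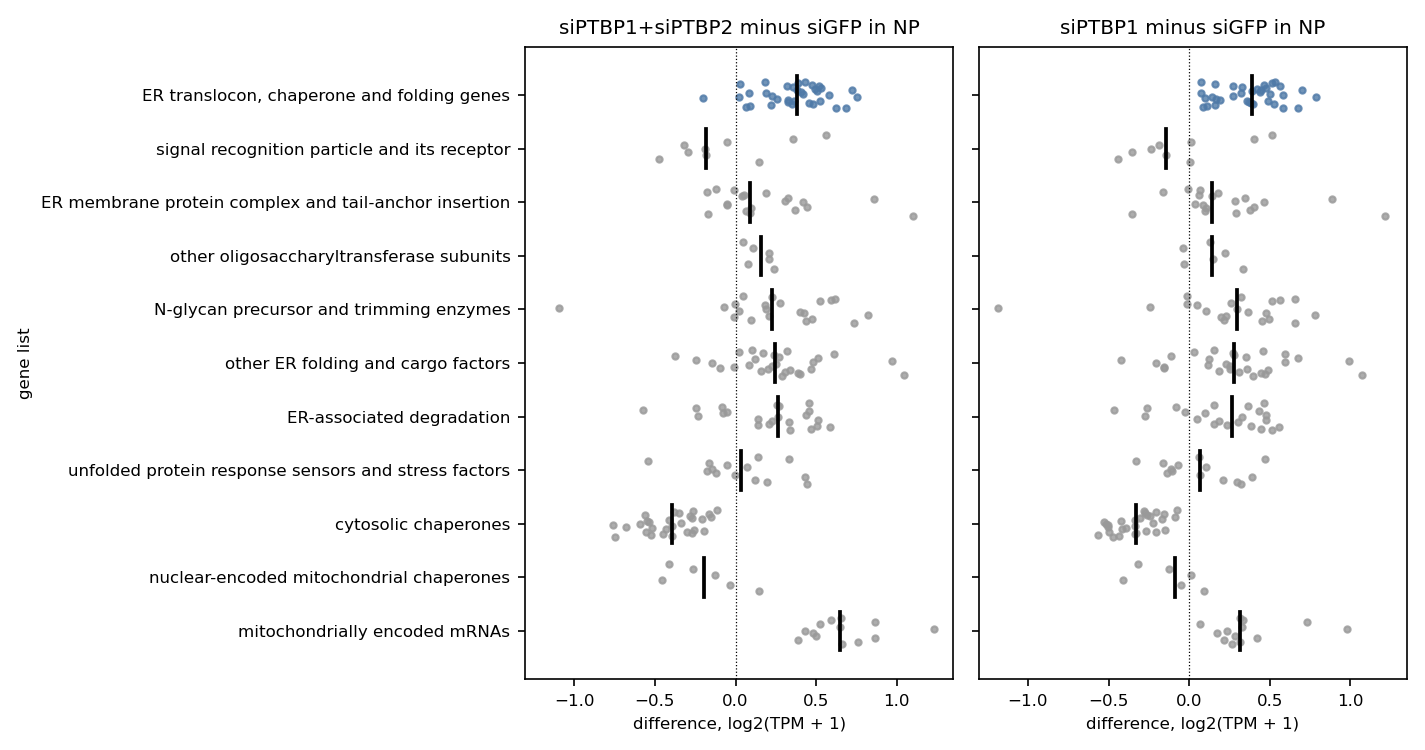
NP difference on the log2(TPM + 1) scale for the double knockdown (left) and siPTBP1 (right) minus siGFP, by gene list. Dots are genes and bars are list medians: 0.38 and 0.39 for the 35 ER genes, against -0.39 and -0.33 for cytosolic chaperones in the same panels.

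Some other RNA also stood higher on average in NP of the knockdowns. The mitochondrial share overlapped that of siGFP in both, and library 1 of siPTBP1 cells was below library 1 of siGFP. All mitochondrially encoded genes together took 9.31, 20.2 and 19.3% of TPM in NP of siPTBP1 cells, against 9.68, 15.6 and 13.7% in siGFP cells. In NP of the double knockdown they took 15.0, 22.5 and 19.1%. Of the mRNAs among them, 13 of 13 were above 0 in both knockdowns (medians 0.32 and 0.65). The 12 primitive endoderm markers summed to 433 to 532 TPM in NP of siPTBP1 cells and 419 to 500 TPM in NP of the double knockdown, against 286 to 344 TPM in NP of siGFP cells. Their mean sums were 29.0 and 26.6 TPM in CY of the same knockdowns, against 26.7 in siGFP cells, and 314 and 320 in CH, against 334. In NP of siPTBP1 cells the laminin genes Lamc1 and Lamb1 averaged 225 and 129 TPM. Gata4, Gata6, Sox17 and Foxa2 averaged 2.17, 1.03, 1.15 and 1.22 TPM there. Lamc1 and Lamb1 were themselves higher in NP than in CY of siGFP cells (3.96 and 3.74). Of the 11 primitive endoderm markers tested, 10 were above 0 in NP of siPTBP1 cells and 9 in the double knockdown. Of these markers 0 were called, and none was at 0 in all libraries. The 11 pluripotency markers had medians of -0.42 and -0.41, and 0 were called in NP without the block. With the block 1 of them, Zfp42, was called lower in both knockdowns (-0.91 and -0.95, adjusted p = 0.0114 and 0.00863). With the mitochondrially encoded genes left out and the rest rescaled, the NP medians of the 35 ER genes were 0.44 in siPTBP1 cells and 0.49 in the double knockdown. As deposited they were 0.39 and 0.38. After that rescaling 35 and 34 of the ER genes lay above 0. The part of the marker genes in the values of the ER genes was not tested.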

How the data were processed

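Polyadenylated RNA of 27 libraries was measured. The authors deposited TPM per gene; STAR, kallisto and mm10 are named in the submitters' processing notes, without versions; the annotation release they counted on is not stated. Library kits were stranded, per the labels' protocols. TPM keeps no depth, so no counting interval is given.

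Genes with at least 1 TPM in at least 3 libraries entered a linear model of log2(TPM + 1) by limma (version 3.58.1, R version 4.3.3), with 9 group means, 18 residual degrees of freedom, two-sided moderated tests, a mean-variance trend and robust shrinkage. The procedure was tested on simulated data. Called means a Benjamini-Hochberg adjusted p under 0.05 over all genes tested. Nothing in the labels says that libraries of a group came from separate cultures, so p-values reflect library spread, which may be technical. Log2 differences understate the change of low genes.

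Libraries with the same replicate number deviated together from their group means: over 108 such pairs the correlation was at least 0.13, with a median of 0.365, and 27 of 27 libraries correlated best with their own number. This pairing was read from the data; no label explains the numbers. The block alternative had 16 residual degrees of freedom.

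The members and lists were chosen with earlier results of these data known. Every library's value is given for the 2 members with the largest and the 2 with the smallest NP minus CY difference, those with the smallest p in each knockdown contrast, those called in any knockdown, and the 2 most abundant; a few others were added where a result turned on them. In the other lists up to 3 genes with the smallest p were named. Coordinates, protein length and hydropathy classes (mean Kyte-Doolittle value of at least 2.0 over 10 residues, or 1.6 over 19) come from GENCODE M21 on GRCm38, which gave a coding sequence for 14080 tested genes. Of 237 list genes 235 were found.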

Additional observations from a re-analysis of the deposited data

How the results depend on the processing

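With the replicate block 3 members were called in NP of siPTBP1 cells, 2 in NP of the double knockdown and 1 in CH of each. The counts were the same with all libraries numbered 1 left out, and each was 0 with all libraries and no block. Without libraries 1, calls over all 20611 genes were 57 higher and 54 lower in NP of siPTBP1 cells and 42 and 51 in the double knockdown. In CH they were 131 and 51, and 137 and 61. The 3 members in NP of siPTBP1 cells were Sec61a1, Rpn1 and Hyou1 under the block, and Sec61a1, Rpn1 and Calr without libraries 1. In NP of the double knockdown the 2 were Sec61a1 and Hyou1 under the block, and Rpn1 and Calr without libraries 1, with no gene in common. For CH minus NP the block moved the members called higher to 4, against 2 without it. For NP minus CY in siGFP cells it moved signal peptidase to 4 calls, against 2. It moved no other count over all 35 members by more than 1.5 times. Leaving out 1 library at a time gave 24 to 26 calls for NP minus CY in siGFP cells, 25 to 27 in siPTBP1 cells and 26 to 29 in the double knockdown, 26 to 27 for CH minus CY and 12 to 16 for CH minus NP (both directions together, against 27 and 18 with all libraries), and 0 to 1 in CH of the double knockdown, where leaving out siGFP library 1 let Rpn2 pass (0.86, adjusted p = 0.0414). The other knockdown contrasts stayed at 0. The sign of Ssr4 for NP minus CY in siGFP cells turned with median-ratio scaling (-0.18, limma adjusted p = 0.803). With that scaling 32 of the 35 members lay above 0, against 34 as deposited, so Ssr4 was not the only member that turned.

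Scaling moved the median of all genes. For NP minus CY in siGFP cells it was 0.15 as deposited, 0.0 with median-ratio scaling and -0.13 with quantile normalization, with members' medians of 2.17, 1.81 and 1.8. For CH minus CY the medians of all genes were 0.95, 0.34 and -0.12 and those of the members 1.47, 0.42 and 0.66. For CH minus NP they were 0.68, 0.21 and -0.08 for all genes and -0.54, -1.20 and -0.93 for the members. Depth cannot be stated for TPM, and 3 libraries a group limit every test.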

Other observations

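Libraries numbered 1 differed from those numbered 2 and 3 for many of the 35 genes. In CY of the double knockdown, 20 of the 35 differed by more than 1 on the log2(TPM + 1) scale between library 1 and the mean of libraries 2 and 3. The number was 8 in CY of siPTBP1 cells and 7 in CY of siGFP cells, 10, 9 and 6 in NP of the double knockdown, siPTBP1 and siGFP cells, and 8, 5 and 9 in CH of the same treatments. Libraries 2 and 3 differed by that much for 1 gene in CY of the double knockdown and for 0 in each of the other 8 groups. Canx showed it in all fractions, with 385, 1280 and 1210 TPM in NP, 15.8, 130 and 107 TPM in CY and 287, 636 and 637 TPM in CH of the double knockdown. Ddost ran the other way in CH, with 182, 84.9 and 83.2 TPM in siGFP cells.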
